A study of Mus musculus with 8 samples.

Results

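Proximal tubule cells of the mouse kidney were examined by single-cell RNA sequencing. They are the cells that the authors' deposited annotation places in the class PT, and they numbered 52193 of 77393 cells. The study set Control kidneys against kidneys with unilateral ureteric obstruction (UUO), a surgical model in which ligating 1 ureter blocks the outflow of urine. All mice were C57BL/6 of 7 weeks, and UUO kidneys were taken on day 7 following ligation on the left side. Titles and disease labels separated Control from UUO, since all samples carry 1 treatment text, and the handling of Control animals is not described in the labels. There were 6 Control and 2 UUO libraries, made from whole kidney with the 10x Genomics Chromium single-cell 3′ kit. PT cells numbered 29527 in Control and 22666 in UUO.

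The proximal tubule is the first segment of the nephron after the glomerulus and takes back most of the filtered salt, water, glucose, phosphate, amino acids and protein. This work is paid for by oxidative phosphorylation, so its cells are packed with mitochondria, and they are a main site of injury when a ureter is blocked. Usual markers of the class are Slc34a1 (a phosphate cotransporter), Lrp2 (the endocytic receptor megalin), Slc5a2 (the glucose cotransporter of the early segment) and Slc22a6 (an organic anion transporter). Gene-level counts are not analysed here, so the class name was not checked against these markers and is used as deposited. What was measured in each cell is the number of UMIs (unique transcript molecules), the number of genes detected, and the share of UMIs from mitochondrial genes.

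Libraries differed in size and depth, from 2263 to 18393 cells and from 4375942 to 56755823 UMIs, of which PT cells held 2136309 to 44604284. Controls 3 and 4 were counted as 1 sample, because a chi-square test on their cell numbers over the 28 classes gave p = 0.0509 while every other Control pair differed. Control therefore had n = 5 and UUO n = 2. That test treats cells as independent, and a p above 0.05 does not show that the 2 libraries came from 1 kidney. Only 2 PT barcodes occurred in both Control 3 and Control 4. Of 50722 distinct PT barcodes, 1443 occurred in more than 1 library, and 0 of their cells had the same UMIs and genes in any other library. Control 5 had the highest UMIs per PT cell and Control 6 the highest mitochondrial share, though neither lay far enough from the other Controls to pass Dixon's limit for an outlier. These measures are also given without them, because leaving them out changed a call. Separate animals are not stated in any label, so p-values reflect only how these samples vary, and that variation may be technical.

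PT was the largest class in every library, and it made up a larger share of the annotated tubular cells in both UUO samples. Its share of tubular cells was 96.5% in UUO 1 and 89.3% in UUO 2. In Control it was 64.4%, 76.6%, 68.1% and 79.3% in samples 1, 2, 5 and 6 and 54.4% in the pooled Controls 3 and 4. Both UUO samples thus lay above every Control sample. The log2 odds of being PT among tubular cells were higher in UUO by 2.74 (95% interval 1.19 to 4.29, limma adjusted p = 0.00171), and PT was the only tubular class that limma called higher, against a background of 10% of the 10 classes. That fit called 1 class higher and 6 lower. With edgeR on cell numbers the difference is a log2 ratio, another scale than log2 odds, and its size depended on the scaling. With sample totals PT was higher by 0.44 (edgeR adjusted p = 0.0335), and 1 class was called higher and 5 lower. With TMM scaling PT was higher by 3.12 (edgeR adjusted p = 0.00509), and 2 classes were called higher, PT among them, and 1 lower. The exact permutation p was 0.0476, the smallest that 2 samples among 7 can give. Without UUO 1 the difference was 1.89 and was not called (limma adjusted p = 0.0696), and in the libraries over 10000 cells it was 2.40 and was not called (adjusted p = 0.0737). With a minimum of 1000 UMIs per cell the difference was 2.84 (limma adjusted p = 0.00179). The share is of cells in the deposited annotation, not of cells in the kidney. It rises in the same way whether PT cells are more or other tubular cells are fewer among them, and the counts cannot tell these apart. Whether cell recovery, filtering or class calling differed between the groups was not tested.

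Against all cells of the kidney the PT share did not separate the groups. PT cells were 79.3% (exact 95% binomial interval 78.7 to 79.9, counting error only) of UUO 1 and 62.5% (61.7 to 63.3) of UUO 2. Control samples ran from 44.8% in the pooled Controls 3 and 4 to 73.1% in Control 6, so UUO 2 lay inside the Control range. The log2 odds difference was 0.63 (-1.03 to 2.30, limma adjusted p = 0.550), where limma called 50% of the 28 classes. It was 0.034 without UUO 1 and 1.23 without UUO 2, not called in either case (limma adjusted p = 0.986 and 0.333). In molecules the picture was alike. PT cells contributed 81.2% of the UMIs of UUO 1 and 63.8% of those of UUO 2, and 47.6% to 72.6% in the Control samples. Their share of molecules was thus 72.5% ± 12.3 (SD, n = 2) in UUO and 61.5% ± 11.0 (SD, n = 5) in Control, close to their share of cells, 70.9% ± 11.9 and 61.5% ± 11.4. The difference in molecules was 0.75 on the log2 odds scale (exact permutation p = 0.286), 0.11 without UUO 1 and 1.40 without UUO 2.

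**Figure D1:**
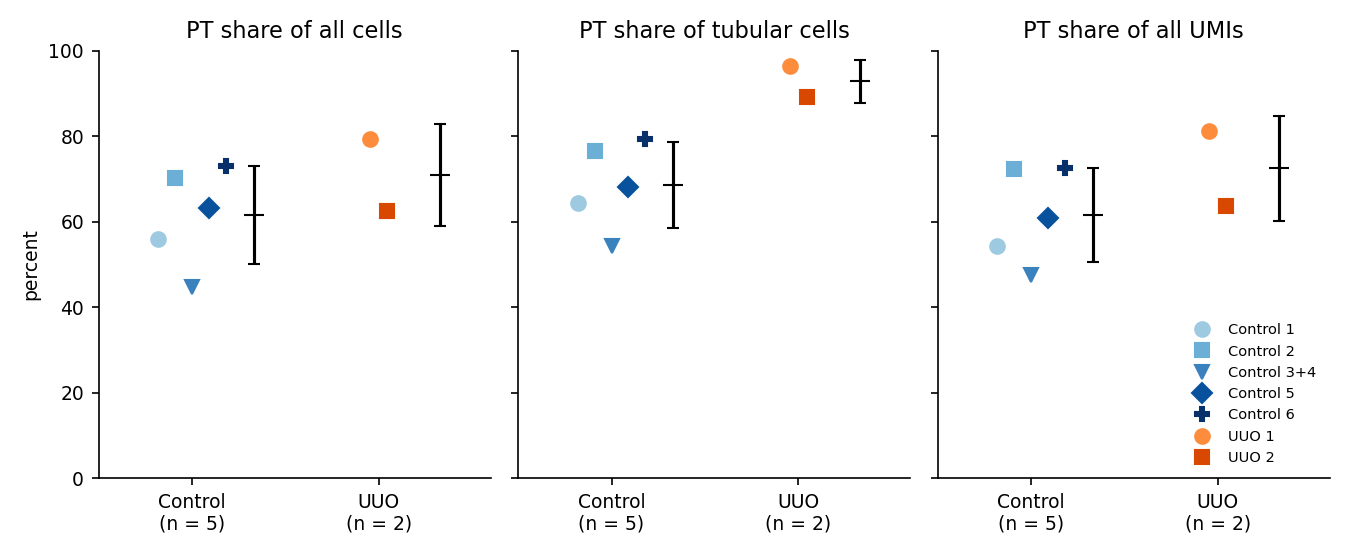
PT cells as a percentage of all cells, of tubular cells and of all UMIs in each sample (points), with group mean ± SD (black bars; 5 Control samples with Controls 3 and 4 pooled, 2 UUO samples). The groups are apart only among tubular cells, where UUO samples lie at 89.3% and 96.5% and Control samples at 54.4% to 79.3%.

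PT cells of the UUO samples carried more UMIs and genes than those of most Control samples, but not more than those of Control 5. The median PT cell held 2618 UMIs in UUO 1 and 2729 in UUO 2. In Control the medians were 1260, 1682, 2891 and 1729 in samples 1, 2, 5 and 6 and 1380 in the pooled Controls 3 and 4. Control 5 was therefore above both UUO samples, and the other Control samples were below them. Median genes detected were 1077 and 1056 in UUO 1 and 2, 1116 in Control 5 and 600 to 775 in the other Control samples as counted, so Control 5 was again the highest. The UUO minus Control difference was 0.64 in log2 UMIs (95% interval -0.04 to 1.33, limma adjusted p = 0.233) and 0.47 in log2 genes (-0.04 to 0.99, adjusted p = 0.217). Limma called 10.5% of the 19 classes tested for UMIs and 5.26% for genes, and PT was not among them. Taking out mitochondrial molecules gave nearly the same difference, 0.65 (adjusted p = 0.210), with medians of 2171 and 2251 non-mitochondrial UMIs in UUO 1 and 2 and 1019 to 2442 in Control.

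Several alternatives moved the difference in UMIs, some up and some down. Without Control 5 the PT difference was 0.83 in log2 UMIs (limma adjusted p = 0.00451) and 0.61 in log2 genes (adjusted p = 0.0196), both called. PT was then 1 of 9 classes called higher in UMIs and 1 of 6 in genes, among the 19 tested. With all samples, 2 classes were called higher in UMIs and 1 in genes. With PT and other cells of at least 20% mitochondrial UMIs left out, the PT difference was 0.83 in log2 UMIs (limma adjusted p = 0.0235) and 0.63 in log2 genes (adjusted p = 0.0135). In that setting 5 classes were called higher in UMIs and 7 in genes. In the 4 largest libraries (over 10000 cells each), which are both UUO samples with Controls 5 and 6, the difference in log2 UMIs shrank to 0.26 (limma adjusted p = 0.719). With a minimum of 1000 UMIs per cell the PT difference was 0.30 in log2 UMIs (limma adjusted p = 0.413), 0.19 in log2 genes (adjusted p = 0.389) and 0.27 in log2 non-mitochondrial UMIs (adjusted p = 0.338). Sequencing depth and transcript content both enter raw UMIs. Measured against the other classes of the same library, the PT difference in UMIs was 0.11 (limma adjusted p = 0.872).

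Cells under 1000 UMIs were 4.88% and 2.82% of PT cells in UUO 1 and 2. They were 39.5%, 24.8%, 8.77% and 20.9% in Controls 1, 2, 5 and 6 and 36.1% in the pooled Controls 3 and 4. No Control sample came as low as either UUO sample. In UUO the numbers rose steeply near this limit. UUO 1 held 66 PT cells at log2 UMIs of 9.5 to 9.75 and 744 at 9.75 to 10. UUO 2 held 152 at 9.75 to 10 and 645 at 10 to 10.25. Control 5 held 251, 290 and 358 in these bands in turn. Whether a cell filter set this edge, and its part in the medians of UMIs and genes, was not tested. At the upper end, cells of 4000 UMIs or more were 26.6% and 30.3% of PT cells in UUO and 2.63% to 32.7% in Control, with Control 5 the highest. These limits were chosen after the values were seen, so the contrasts were given no test.

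**Figure D2:**
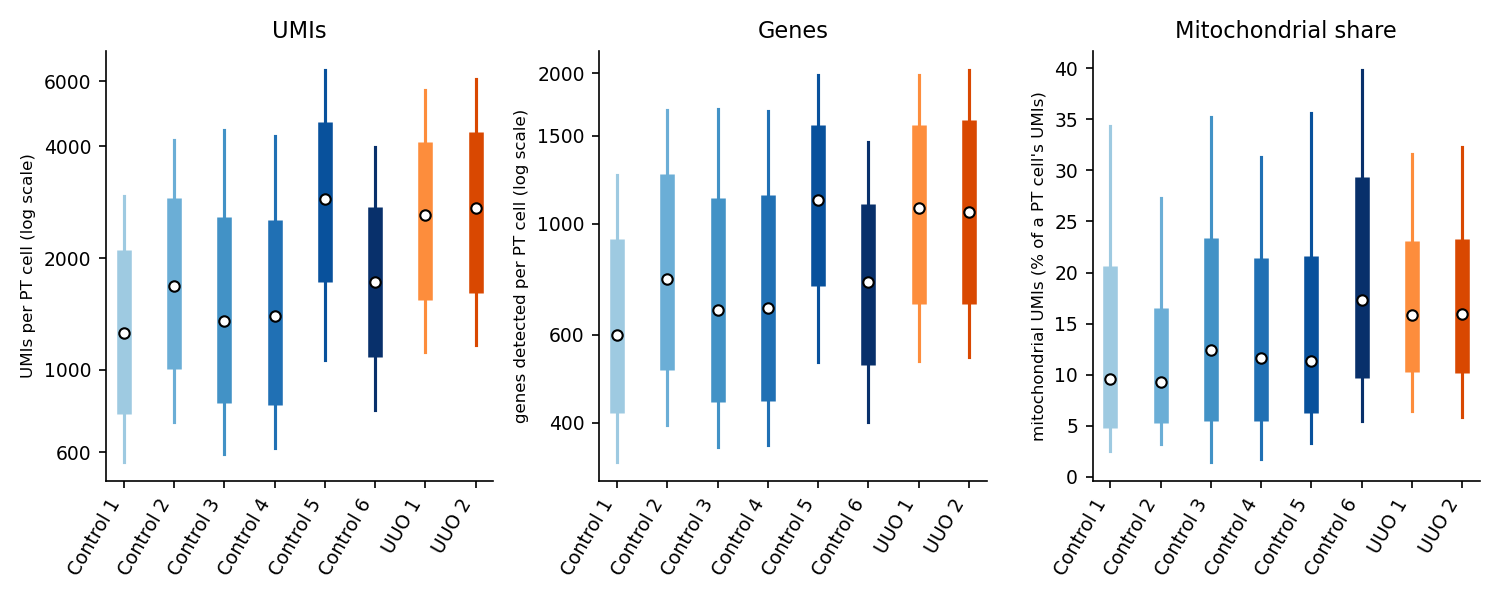
UMIs, genes detected and mitochondrial share per PT cell in each of the 8 libraries: white point, median; thick bar, 25th to 75th percentile; thin line, 10th to 90th percentile (log axes for UMIs and genes). Control 5 has the highest median UMIs (2891) and Control 6 the highest median mitochondrial share (17.3%).

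Mitochondrial genes supplied a larger part of the PT transcriptome in both UUO samples than in all Control samples except Control 6. The median share was 15.9% in UUO 1 and 16.0% in UUO 2. It was 9.60%, 9.29%, 11.3% and 17.3% in Controls 1, 2, 5 and 6 and 11.8% in the pooled Controls 3 and 4. The 2 UUO samples nearly coincided, and Control 6 lay above them. The difference of 4.05 percentage points (95% interval -1.65 to 9.75) was not called by limma (adjusted p = 0.887), which called 0% of the 19 classes and gave 0 at an unadjusted p under 0.05. The exact permutation p for PT was 0.190. Without Control 6 the difference was 5.40 points and was called (limma adjusted p = 0.0428), and among the libraries over 10000 cells it was 1.59 points (adjusted p = 0.570). With sample means in place of medians it was 2.17 points (limma adjusted p = 0.936). Of all UMIs of PT cells summed, mitochondrial genes gave 16.4% ± 0.235 (SD, n = 2) in UUO and 14.5% ± 3.63 (SD, n = 5) in Control, with Control 5 at 16.1% beside UUO 1 at 16.2%.

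The groups lay apart in the band of 10% to under 20% mitochondrial UMIs, though not in the median. The interquartile range, a measure set with the design, also overlapped (12.8 and 13.1 points in UUO, 11.2 to 19.6 in Control). In UUO 1 and 2, 42.2% and 41.2% of PT cells had 10% to under 20% mitochondrial UMIs. In Control this band held 22.7%, 28.1%, 28.1% and 30.5% of PT cells in samples 1, 2, 5 and 6 and 27.4% in the pooled Controls 3 and 4. Neither UUO sample came near the Control range in this band. PT cells under 5% mitochondrial UMIs were 6.06% and 8.12% of the class in UUO and 18.4% to 26.4% in Control samples other than Control 6, which held 8.32%. The most common 5-point band was 10% to 15% in both UUO libraries, with 22.3% and 21.5% of PT cells, and lay below 10% in each Control library. At the upper end the groups met: cells of 30% or more were 12.1% and 12.3% of PT cells in UUO and 7.70% to 23.9% in Control. These bands were chosen after the values were seen and carry no test.

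**Figure D3:**
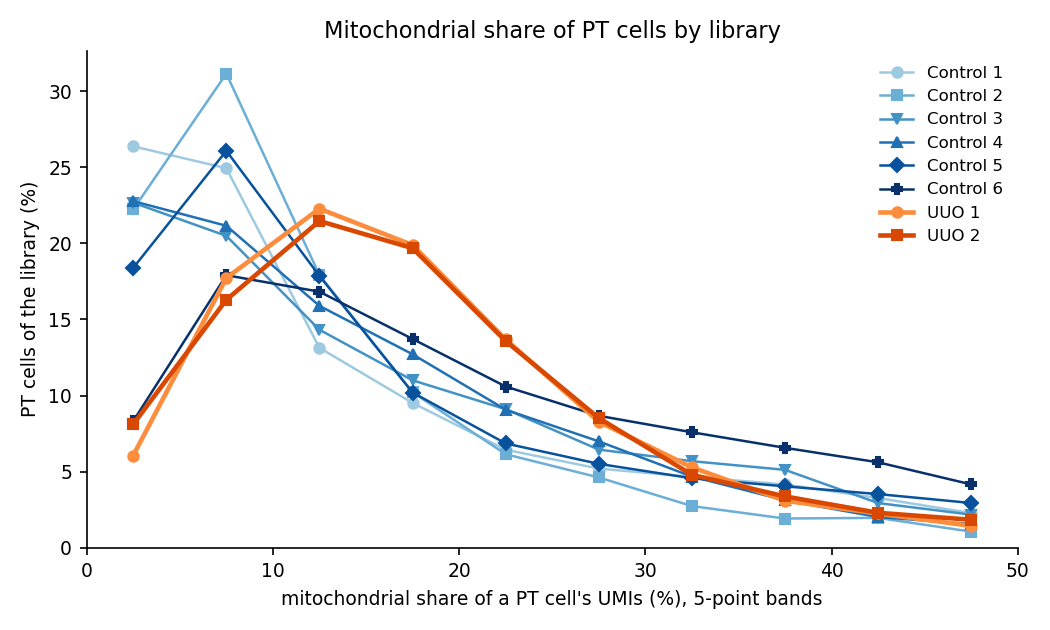
Percentage of a library's PT cells (vertical axis) in each 5-point band of mitochondrial share (horizontal axis), one line per library. Both UUO lines peak at 10% to 15%, with 22.3% and 21.5% of PT cells, and all Control lines peak below 10%.

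In numbers of molecules, the median PT cell held 404 and 428 mitochondrial UMIs in UUO 1 and 2. Control samples held 124, 165, 330 and 292 in samples 1, 2, 5 and 6 and 167 in the pooled Controls 3 and 4. The groups did not overlap on this measure, 416 ± 17.0 (SD, n = 2) in UUO against 216 ± 89.8 (SD, n = 5) in Control, although each overlapped in total UMIs and in mitochondrial share. It was looked at after those 2 measures were seen and was not tested. The share of PT cells at or above 20%, a limit set with the design, was 34.04% and 34.43% in UUO and 28.8% ± 9.0 (SD, n = 5) in Control, with Control 6 at 43.2% above both UUO samples. The log2 odds difference was 0.41 (exact permutation p = 0.476, adjusted 0.786).

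Because genes detected rose with UMIs and mitochondrial share may vary with them, PT cells were also compared within windows of UMIs. Among PT cells of 1000 to under 2000 UMIs the median mitochondrial share was 19.9% in UUO 1 and 20.1% in UUO 2. In the same window Controls 1, 2, 5 and 6 had 10.8%, 12.7%, 12.7% and 17.7% and the pooled Controls 3 and 4 had 13.8%. Both UUO samples were above every Control sample, by 6.45 points on average (exact permutation p = 0.0476, adjusted 0.524). At 2000 to under 4000 UMIs the medians were 14.4% and 15.0% in UUO and 10.3% ± 3.98 (SD, n = 5) in Control, where Control 6 had 16.0%. That difference was 4.42 points (exact permutation p = 0.190, adjusted 0.786). At 4000 to under 8000 UMIs they were 14.2% and 13.9% against 9.08% ± 4.59 in Control (exact permutation p = 0.286), a mean that includes 4.75% over only 50 cells in Control 1. In all 7 samples as counted, Control and UUO alike, PT cells of 1000 to under 2000 UMIs had a higher median mitochondrial share than those of the 2 deeper windows. With sample means in place of medians, the difference at 2000 to under 4000 UMIs was 2.76 points (exact permutation p = 0.333).

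Genes detected at matched UMIs did not separate the groups in the 2 deeper windows. PT cells of 2000 to under 4000 UMIs had a median of 1185 genes in UUO 1 and 1098 in UUO 2, inside the Control range of 1081 to 1212. The log2 difference was 0.0047 (exact permutation p = 0.952) and took either sign when samples were left out. At 4000 to under 8000 UMIs the medians were 1836 and 1819 in UUO and 1674 to 1880 in Control (difference 0.036, exact permutation p = 0.619). In the window of 1000 to under 2000 UMIs the UUO medians of 639 and 620 lay below the Control range of 654 to 691 (log2 difference -0.087, exact permutation p = 0.0952, adjusted 0.524). In this window mitochondrial share was the highest of the 3 in UUO and Control samples alike, and its part in the gene numbers was not tested.

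**Figure D4:**
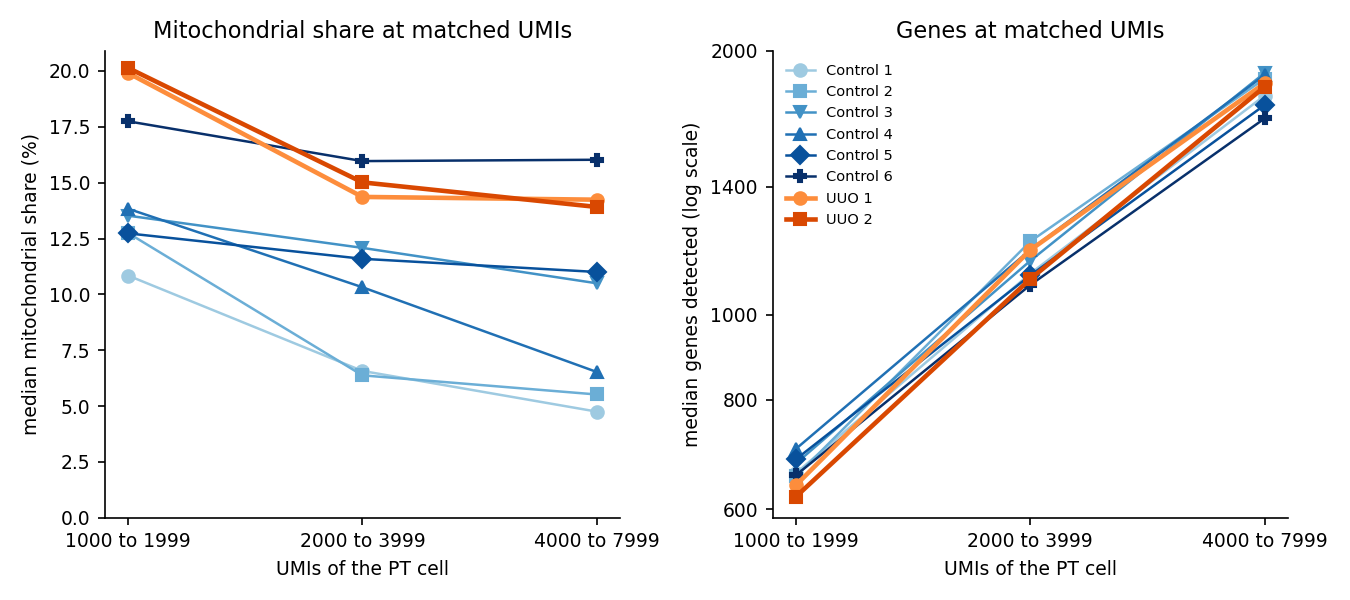
Median mitochondrial share (left) and median genes detected (right, log axis) of PT cells within 3 windows of UMIs, one line per library. UUO libraries stand above every Control library in mitochondrial share only in the lowest window, at 19.9% and 20.1% against at most 17.7%.

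Against the mean of 5 other tubular classes of the same kidney, PT cells had the higher mitochondrial share in both UUO samples. In every Control sample as counted they had the lower. Class by class the sign was not uniform. Other tubular classes with a higher median than PT were 1 and 5 of 9 in UUO 1 and 2. In Control samples as counted they were 4 to 9. For each sample the median of PT was compared with the mean of the medians of 5 classes that had at least 20 cells in every sample: Profibrotic Tubules, ascending loop of Henle (ALOH), distal convoluted tubule (DCT), connecting tubule (CNT) and acid-secreting A-IC cells. PT was 5.97 points above this mean in UUO 1 and 0.596 above it in UUO 2. In UUO 2 PT was above Profibrotic Tubules (8.46), ALOH (4.13) and DCT (0.390) and below CNT (-4.68) and A-IC (-5.33). In Control the PT minus reference difference was -0.642, -2.57, -9.65 and -1.83 points in samples 1, 2, 5 and 6 and -0.627 in the pooled Controls 3 and 4. All 5 Control samples were on one side and both UUO samples on the other. The difference between groups was 6.35 points (exact permutation p = 0.0952, adjusted 0.786) and ran from 3.66 without UUO 1 to 9.04 without UUO 2. With sample means in place of medians it was 3.94 points (exact permutation p = 0.286). Taken alone, Control 3 stood 0.0767 points above the mean of the 5 reference classes, where Profibrotic Tubules held only 6 cells.

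The reference classes averaged 12.6% ± 3.89 (SD, n = 2) in UUO and 14.9% ± 4.80 (SD, n = 5) in Control, while PT averaged 15.9% ± 0.0864 and 11.9% ± 3.22, so PT was the higher and the reference classes were the lower in UUO, each with overlapping groups. By class, the PT minus class difference did not overlap between the groups for Profibrotic Tubules, ALOH, DCT and CNT and overlapped for the other 5 of 9. All 9 differences use the same PT medians, so they are not separate observations. For mitochondrial share itself limma called 0% of classes, which is another measure than overlap. PT was 4.31 and 4.13 points above ALOH in UUO 1 and 2 and from -7.89 to 0.842 points off it in Control. Against DCT, which reabsorbs sodium chloride beyond the loop, PT was 6.43 and 0.390 points above in UUO, and the difference was -11.9 to -1.48 in Control. Against CNT the difference was 5.76 in UUO 1 but -4.68 in UUO 2, and -15.4 to -5.48 in Control. These single classes rest on few cells in UUO 1, with 98 DCT, 82 ALOH and 24 CNT cells, and the differences by class were not tested.

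**Figure D5:**
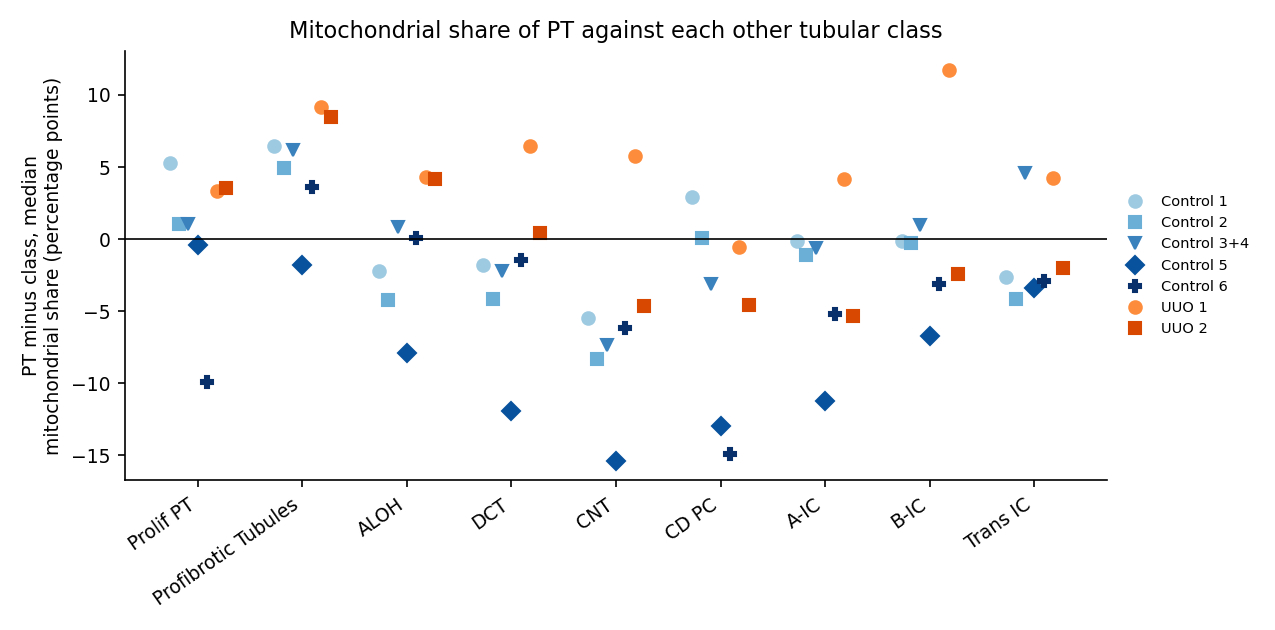
Median mitochondrial share of PT minus that of each other tubular class (percentage points, vertical axis) in each sample (points; Controls 3 and 4 pooled), with 0 marked. Against ALOH and DCT both UUO samples lie above every Control sample, and Control 5 lies lowest in 6 of the 9 classes.

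In UMIs and genes, PT relative to the other tubular classes did not separate the groups. The PT median was 1.05 times that of the 5 reference classes in UUO 1 and 0.854 times in UUO 2. In Control the ratio ran from 0.715 in Control 1 to 1.06 in the pooled Controls 3 and 4, so both UUO samples lay inside the Control range. The group difference was 0.12 in log2 UMIs (exact permutation p = 0.571) and 0.026 in log2 genes (exact permutation p = 0.762), and each had the other sign with all other tubular cells pooled (-0.13 and -0.17). Acid-secreting A-IC and base-secreting B-IC cells had higher median UMIs than PT in each of the 8 libraries.

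The authors named 2 further tubular classes that are read beside PT. Prolif PT cells, the dividing proximal tubule class, numbered 0.775 and 0.520 per 100 PT cells in UUO 1 and 2. Controls 1, 2 and 6 had 0.843, 0.730 and 0.681, the pooled Controls 3 and 4 had 0.647, and Control 5 had 5.18. Control 5 stood far above all other samples. The difference between groups was -0.76 on the log2 scale (exact permutation p = 0.476) and -0.20 without Control 5. Profibrotic Tubules cells numbered 0.843 and 1.11 per 100 PT cells in UUO and 0.411 to 1.83 in Control. Both UUO values lay inside the Control range (log2 difference 0.10, exact permutation p = 0.714), and the sign turned without Control 6 (-0.18) or UUO 2 (-0.097).

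PT cells varied widely among themselves within each library. The 90th percentile of UMIs was 5.10 and 5.22 times the 10th in UUO 1 and 2 and 5.10 to 7.16 times in the Control samples. The interquartile range was 1.42 and 1.45 in log2 UMIs in UUO against 1.49 ± 0.120 (SD, n = 5) in Control (difference -0.053, exact permutation p = 0.524). For mitochondrial share it was 12.8 and 13.1 points in UUO against 15.7 ± 3.02 in Control (difference -2.81, exact permutation p = 0.286), with Control 2 at 11.2 the narrowest. Across PT cells of 1 library, UMIs and genes rose together, with Spearman's rho of 0.964 to 0.980 over the 8 libraries. Spearman's rho between UMIs and mitochondrial share was -0.23 and -0.18 in UUO 1 and 2 and ran from -0.46 in Control 2 to 0.061 in Control 5. These are correlations across 1054 to 14584 cells that share a library, in measures that share the same UMIs, and are given as description only.

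After Benjamini-Hochberg adjustment over the 11 PT values compared by the exact test, 0 passed 0.05 and 0 had an unadjusted p under 0.05. Passing would have needed all 11 to reach 0.0476, so this is no evidence that the groups were alike. The deposited cells reach 2998 genes and 49.98% mitochondrial UMIs, and PT cells beyond these values are not seen here. Cells of at least 2700 genes were 0% to 1.42% of PT cells and cells of at least 45% mitochondrial UMIs 1.06% to 4.17% over the 8 libraries.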

How the data were processed

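Each row of the deposited annotation is 1 cell. UMIs per cell and genes detected per cell are raw counts, not normalized, per the file headers. The mitochondrial share is a percent of the cell's own UMIs, per the file headers, and gave whole numbers of molecules in 100% of cells (tolerance 0.001). Cell Ranger 6.0.1, Seurat 4.0.1 and the build mm10 are named in the submitters' processing notes. Cell filters, doublet treatment and class calling are not described in the labels. Sample names matched the titles, and 0 per-sample columns were left out.

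Cells are not replicates, so each sample gave 1 value. Shares (log2 odds, offset 0.5 cells) and sample medians (log2; percentage points for mitochondrial share) entered limma 3.58.1 (R 4.3.3) fits. These ran over 28 classes, 10 tubular classes or, for medians, 19 classes that reached 20 cells in 2 or more samples per group, with Benjamini-Hochberg adjustment and a threshold of 0.05. In the fits of shares all classes share 1 variance, so intervals may be too narrow. Other PT values were compared by a two-sided exact permutation test over 21 ways. Alternatives included edgeR 4.0.16 on cell numbers, other limits and scales, and leaving out each sample. Leaving out both Controls 3 and 4 was added after seeing the data. Fits were run on simulated data, where only the size of the estimates was held to a limit. Classes were drawn independently there, unlike real shares, in which a rise in 1 class lowers the others. Classes are named by a rule: PT, and any tubular class set beside it. No gene was measured. The class and the measures were chosen with earlier results of these data known.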

Additional observations from a re-analysis of the deposited data

Results flagged for a closer look

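Among the 5 Control samples, each of the 17 PT values was checked for a sample far from the rest, and 2 were found, both in Control 5. Chance alone marks about 1 in 20 such groups. In Control 5 the median mitochondrial share of PT lay -9.65 points from the mean of the 5 reference tubular classes, with the other Control samples between -2.57 and -0.627. Prolif PT cells per PT cell were -4.27 on the log2 scale in Control 5, which is 5.18 per 100 PT cells, with the other Control samples between -7.23 and -6.85.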

How the results depend on the processing

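Of 108 alternative values of the 6 PT results fitted with limma, 93 kept their direction and their side of the threshold, 1 turned direction, 10 passed the threshold where the value reported did not, and 4 no longer passed. Of 159 alternative values of the 11 results compared by the exact test, 134 kept their direction and 25 turned; with so few samples hardly any outcome could pass after adjustment, so their side of the threshold says nothing about stability. The cause was not tested unless stated. The PT share of tubular cells stayed positive, at 1.89 to 3.60 with each sample left out, and was not called without UUO 1 (limma leaves 1 UUO sample there and assumes it varies like the Controls), at 2.40 in the libraries over 10000 cells, or at 2.74 by the exact permutation test (p = 0.0476, adjusted 0.229 over 6 values, too few samples to pass). Tubular classes called higher and lower were 0 and 0 without UUO 1 and 0 and 4 in the libraries over 10000 cells, against 1 and 6. The PT share of all cells was -0.0065 with TMM scaling in edgeR.

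Leaving out each sample gave 0.53 to 0.83 in log2 UMIs, 0.38 to 0.61 in log2 genes, 0.54 to 0.85 in log2 non-mitochondrial UMIs and 3.40 to 5.40 points in mitochondrial share, the upper ends being called without Control 5 (Control 6 for the last). Without Control 5, 9 classes were called in UMIs, against 2. Cells under 20% mitochondrial UMIs alone gave called differences of 0.83, 0.63 and 0.81 in the same 3 measures. Genes at 2000 to under 4000 UMIs ran from -0.050 to 0.060 with a sample left out, and were -0.00074 with Controls 3 and 4 separate and -0.087 in the window of 1000 to under 2000. Against the other tubular classes UMIs ran from -0.037 to 0.27 and genes from -0.056 to 0.11. A minimum of 1000 UMIs gave -0.14 for UMIs and -0.15 for genes, sample means -0.066 and -0.063, and pooled tubular cells -0.13 and -0.17, and genes were -0.0041 with Controls 3 and 4 separate. Log2 odds of high mitochondrial share were -0.044 in the libraries over 10000 cells and -0.24 at a limit of 30%. The spread of UMIs was 0.049 in those libraries and 0.24 with a minimum of 1000 UMIs. Cells under that minimum were a larger share of PT cells in every Control sample than in either UUO sample, and their part in the spread was not tested. Profibrotic Tubules per PT cell ran from -0.18 to 0.36, and was -0.029 with a minimum of 1000 UMIs.

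The sample numbers gave 2 pairs, whose deviations from group means correlated at -0.33 and 0.055 over 28 classes. With 2 UUO samples, their deviations mirror each other, so this check cannot show whether a pair shared a batch. The labels give the pairs only a shared number. With the replicate block, which rests on Controls 1 and 2 and leaves 1 residual degree of freedom, the PT share of tubular cells was 2.63 (not called), and UMIs (0.88), non-mitochondrial UMIs (0.87) and mitochondrial share (6.47 points) were called. Genes at 2000 to under 4000 UMIs were then -0.027 and Profibrotic Tubules per PT cell -0.44.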

Other observations

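The lower edge of UMIs per PT cell differed between libraries. PT cells under 500 UMIs numbered 94 in Control 1 and 18 in Control 3 and 0 in each of the other 6 libraries, where the lowest PT cell had 500 to 509 UMIs. Few cells lay near that minimum in UUO, where numbers rose steeply only near 1000 UMIs. At log2 UMIs of 9 to 9.25 lay 0.144% and 0.544% of PT cells in UUO 1 and 2. In Control libraries this band held 1.69% to 8.90%. Over all classes, 147 cells of Control 1 and 47 of Control 3 were under 500 UMIs, and 1 cell in the other 6 libraries. The alternative with a minimum of 1000 UMIs per cell leaves these cells out.

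Some PT cells had a very low share of mitochondrial UMIs. Cells under 2% mitochondrial UMIs made up 12.05% and 11.50% of PT cells in Controls 3 and 4, 1.66% to 6.69% in the other Control libraries, and 1.46% and 3.22% in UUO 1 and 2. They were not the shallowest cells: their median was 1444 and 1601 UMIs in Controls 3 and 4, against 1355 and 1397 over all PT cells there, but in UUO 1 and 2 it was 1763 and 2224, under the class medians of 2618 and 2729. The limit of 2% was chosen after the values were seen, and no test was made.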
